A study of Homo sapiens with 4 samples.

Results

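Tandem GATA peaks are GATA2 ChIP-seq peaks whose hg38 reference sequence holds a run of at least 4 consecutive GATA units on either strand, that is at least 16 bp of uninterrupted repeat. They were found by searching the reference sequence under every deposited peak, and the rule uses sequence alone. Of the 31777 peaks of asynchronous K562 cells, 452 held such a run, and of the 1648 peaks of mitotic cells 3 did, which makes 455 of 33425 intervals in both lists. K562 is an established human leukaemia cell line that expresses endogenous GATA2. Asynchronous cells were fixed with disuccinimidyl glutarate and formaldehyde. Mitotic cells were arrested with nocodazole, fixed in the same way, sorted in several rounds for MPM-2 staining, which marks phosphorylated mitotic proteins, and pooled, with below 10% contamination by asynchronous cells. There was 1 GATA2 library in each condition, so no difference has a replicate check and no test between conditions was made. The lists give the start and end of each peak only, the depth of the libraries is unknown, and all intervals below are 95% intervals that cover counting error over peaks or loci.

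GATA2 is a zinc finger transcription factor of blood stem and progenitor cells. It binds the WGATAR string, which is GATA with A or T before it and A or G after it, often beside partners such as the TAL1 complex, RUNX1 and ETS factors. Tandem repeats of a 4-base unit are microsatellites, whose number of units varies between people and cell lines. Within a GATA repeat every inner unit reads AGATAG, so a repeat offers a GATA factor a closely packed series of matches. A factor that stays on its sites through cell division is said to bookmark them. Here an asynchronous peak was called bookmarked where it shared at least 1 base with a mitotic peak. The lengths reported are those of the reference, and the alleles of K562 cells were not analysed here.

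The 3 mitotic peaks with a run are shown first, because they carry the only runs of at least 4 units in the mitotic list. Each is printed 5′ to 3′ on the plus strand of hg38 with the longest run in capitals (TATC is GATA read on the minus strand). The first is the whole mitotic peak in the first intron of ST6GALNAC1, and the other stretches are parts of wider mitotic peaks.
ST6GALNAC1, chr17:76642121-76642325: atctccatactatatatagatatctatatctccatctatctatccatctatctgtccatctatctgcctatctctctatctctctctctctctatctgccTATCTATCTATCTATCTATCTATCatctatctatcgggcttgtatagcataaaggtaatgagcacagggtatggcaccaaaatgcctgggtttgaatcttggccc
WIPF3, chr7:29748950-29749189: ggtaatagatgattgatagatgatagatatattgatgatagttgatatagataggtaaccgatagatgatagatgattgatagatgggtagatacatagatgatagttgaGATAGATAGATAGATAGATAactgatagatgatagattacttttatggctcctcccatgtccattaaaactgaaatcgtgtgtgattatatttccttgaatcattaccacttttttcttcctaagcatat
ZNF81, chrX:47817641-47817798: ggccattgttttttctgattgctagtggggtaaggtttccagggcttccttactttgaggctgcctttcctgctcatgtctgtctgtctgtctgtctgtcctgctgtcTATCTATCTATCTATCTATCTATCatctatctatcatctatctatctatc
In all 3 the perfect run is short, and further GATA units lie beside it without joining it.

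A further pair of bookmarked peaks held longer runs, but their mitotic peaks did not reach them. For KIT the repeat inside the asynchronous peak is printed with runs of at least 4 units in capitals. For KIT and UST a stretch of the mitotic peak is printed with its WGATAR matches in capitals (TTATCA is TGATAA on the minus strand).
KIT, repeat in the asynchronous peak, chr4:54570932-54571091: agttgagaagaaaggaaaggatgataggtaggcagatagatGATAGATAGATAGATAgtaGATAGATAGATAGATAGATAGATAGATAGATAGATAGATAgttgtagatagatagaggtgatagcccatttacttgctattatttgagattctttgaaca
KIT, mitotic peak, chr4:54571407-54571566: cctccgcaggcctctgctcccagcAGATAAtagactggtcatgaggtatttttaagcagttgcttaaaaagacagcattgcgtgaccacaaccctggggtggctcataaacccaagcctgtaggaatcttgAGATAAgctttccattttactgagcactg
UST, mitotic peak, chr6:149129545-149129704: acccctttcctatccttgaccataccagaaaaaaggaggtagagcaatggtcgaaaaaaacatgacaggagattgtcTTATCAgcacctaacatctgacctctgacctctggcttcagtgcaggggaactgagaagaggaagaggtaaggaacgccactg
The mitotic stretches hold isolated matches in ordinary sequence, in contrast to the packed repeat shown for KIT.

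Asynchronous-only peaks with long repeats are represented by a peak near R3HDM1, which has one of the longest runs, by part of the peak near PDE9A with the most GATA units of all, and by a peak that spans a start site of SNRNP40. Runs of at least 4 units are in capitals, and the run near R3HDM1 is followed by the beginning of a further one.
R3HDM1, chr2:135698944-135699083: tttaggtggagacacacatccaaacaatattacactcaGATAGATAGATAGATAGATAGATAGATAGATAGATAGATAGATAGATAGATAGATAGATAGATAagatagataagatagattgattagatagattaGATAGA
PDE9A, chr21:42628505-42628784: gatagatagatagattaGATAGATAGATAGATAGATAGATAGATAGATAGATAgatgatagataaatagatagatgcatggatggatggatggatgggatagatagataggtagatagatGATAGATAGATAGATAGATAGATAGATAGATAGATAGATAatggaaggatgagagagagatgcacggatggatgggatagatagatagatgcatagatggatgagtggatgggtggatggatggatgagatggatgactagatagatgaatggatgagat
SNRNP40, chr1:31282528-31282647: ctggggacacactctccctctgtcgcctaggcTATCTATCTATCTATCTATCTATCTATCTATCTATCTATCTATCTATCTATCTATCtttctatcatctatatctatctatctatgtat
Around the runs near PDE9A short stretches of GATA units stand beside stretches of GATG units, a change of 1 base.

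The share of peaks with a run was 1.42% in asynchronous cells (exact binomial interval 1.30% to 1.56%) and 0.182% in mitotic cells (0.0376% to 0.531%). The mitotic share was lower by 1.24 percentage points, and the Newcombe interval of the mitotic minus the asynchronous share ran from -1.42 to -0.867. That interval treats the lists as independent, although 1600 asynchronous peaks share a base with a mitotic peak. The lists were also not matched for peak width, and a narrower peak has less room for a run. As background, equally wide stretches 5 kb upstream and downstream of each asynchronous peak held a run in 47 of 63554 cases, or 0.0740%. Asynchronous peaks thus held a run 19.2 times as often as their surroundings. For the mitotic peaks, 2 of 3296 such flanks held a run (0.0607%), a ratio of 3 that rests on 3 peaks. At 10 kb, 4 of 3296 mitotic flanks held a run (0.121%), so this ratio is not firm.

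Most tandem GATA peaks held a long run. The longest run of an asynchronous peak had a median of 11 units, with quartiles of 9 and 12 and a maximum of 16 units, or 64 bp. A run of 10 to 13 units was the longest in 282 of the 452 peaks (62.4%, 57.7% to 66.9%), while 58 peaks had a longest run of 4 or 5 units. Counted singly, 314 of the 830 runs in asynchronous peaks had 10 to 12 units, as did 3327 of all 9126 runs in hg38. Just inside the threshold lay 32 peaks with a longest run of 4 units and just outside it 50 peaks with 3 units. None of either was bookmarked, which at 5.04% of all asynchronous peaks says little for so few. For the 50 the exact upper bound is 7.11%. A single run was found in 250 peaks, while 130 held 2 and 72 held 3 or more, up to 13 near PDE9A. The longest run read GATA on the plus strand in 229 peaks and on the minus strand in 223, and only 2 peaks held runs on both strands.

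The run was embedded in a wider stretch rich in GATA. A GATA-rich tract was defined as at least 4 GATA units on the same strand whose starts lie no more than 12 bp apart. In the tandem GATA peaks these tracts covered a median of 99 bp (quartiles 64 and 169 bp) and held a median of 20 units, which was 30.5% of the interval at the median. On the strand of the longest run the whole peak held a median of 23 GATA units (quartiles 16 and 37), with a maximum of 205 near PDE9A. Of 13123 steps from a GATA unit to the next on that strand, 60.1% were 4 bp, which is the perfect repeat. Steps of 7 bp (9.06%), 8 bp (6.38%) and 11 bp (3.03%) came next. Where a single altered unit stood between perfect units, in 496 cases, it most often read CATA (27.6%), GACA (17.3%), GATG (16.7%) or GGTA (13.1%). Tandem repeats of the related unit GACA, at least 3 in a row, occurred in 37 tandem GATA peaks (8.19%) and in 30 of the 31325 other asynchronous peaks (0.0958%), and repeats of GATG in 35 (7.74%) and 30 (0.0958%). CA dinucleotide repeats, at least 8 in a row, differed little in share, with 5 peaks (1.11%, 0.360% to 2.56%) against 220 (0.702%, 0.613% to 0.801%).

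Tandem GATA peaks were seldom bookmarked. Of the 452, 5 shared a base with a mitotic peak, or 1.11% (0.360% to 2.56%), against 5.04% of all asynchronous peaks. Among the other asynchronous peaks 1595 of 31325 were bookmarked, or 5.09% (4.85% to 5.34%). The difference was -3.99 percentage points (Newcombe interval -4.67 to -2.51). At the shares of other peaks in the same quartile of width, 22.3 of the tandem GATA peaks would have been bookmarked.

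Peak width was compared next. Tandem GATA peaks had a median width of 362 bp (interval 340 to 379 bp, quartiles 254.75 and 516.25 bp), and the other peaks 378 bp (376 to 381 bp). Standardised for quartile of width, the difference in bookmarked share was -3.84 points (-4.58 to -2.38, with the expected share taken as known). All 5 bookmarked peaks were in the widest quartile, 518 to 2590 bp, where they made up 5 of 112 peaks (4.46%, 1.47% to 10.1%). Other peaks of that quartile were bookmarked in 1281 of 7842 cases (16.3%, 15.5% to 17.2%), a difference of -11.9 points (-14.5 to -6.25). In the narrower quartiles none of 121, 123 and 96 tandem GATA peaks was bookmarked, which by the limit of 3 counts allows shares of up to 2.48%, 2.44% and 3.125%. The other peaks of these quartiles were bookmarked in 0.193%, 0.612% and 3.18% of cases, and the Newcombe interval of the difference includes 0 in each of them. In the third, where the limit of 3 counts lies just under the share of the others, the exact upper bound is 3.77% and the interval of the difference runs from -3.60 to 0.681 points.

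The number of GATA matches in a peak went with bookmarking among the other peaks, while few tandem GATA peaks were bookmarked at any number of matches. Tandem GATA peaks held a median of 13 WGATAR matches, counted on both strands without overlap (quartiles 9 and 21, maximum 125), and the other peaks 2 (quartiles 1 and 3, maximum 63). Among the other peaks the bookmarked share was 1.30% with no match, 2.07% with 1, 3.67% with 2, 5.97% with 3, 9.87% with 4 and 14.8% with 5 or 6 matches. With 7 to 9 matches it was 23.5% (105 of 446, 19.7% to 27.8%), and with 10 or more 16.7% (19 of 114, 10.3% to 24.8%). The tandem GATA peaks with 7 to 9 matches were bookmarked in 1 of 99 cases (1.01%, 0.0256% to 5.50%), and those with 10 or more in 4 of 314 (1.27%, 0.348% to 3.23%). At the same number of matches the other peaks were wider, with medians of 828.5 bp against 275 bp for 7 to 9 matches and 561 bp against 409.5 bp for 10 or more. Within the widest quartile and with at least 7 matches, 5 of 109 tandem GATA peaks (4.59%) and 122 of 436 others (28.0%) were bookmarked. This difference was -23.4 points (-28.5 to -16.4), at median widths of 639 and 877 bp.

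All asynchronous peaks were also compared by their longest run. Peaks with no GATA at all were bookmarked in 4 of 589 cases (0.679%), those with isolated units in 1537 of 30066 (5.11%) and those with a longest run of 2 units in 54 of 620 (8.71%, 6.61% to 11.2%). With runs of 4 or 5 units 1 of 58 was bookmarked, with 6 or 7 units 2 of 30 (6.67%, 0.818% to 22.1%), and with 8 or 9 units 0 of 55, which allows up to 5.45%. With 10 to 12 units 2 of 234 were bookmarked (0.855%, 0.104% to 3.05%) and with 13 to 16 units 0 of 75, which allows up to 4%. Of 140 other peaks that held a GATA-rich tract without a run of 4 units, 1 was bookmarked (0.714%, 0.0181% to 3.92%).

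The bookmarked share was also compared in subsets of peaks cut by a single trait of position or sequence, each with few bookmarked tandem GATA peaks. Over 3 kb from a protein-coding transcription start site (TSS) the bookmarked share was 0.980% of 408 tandem GATA peaks and 5.29% of 24858 others. Where the sequence beyond the tract had a GC content under 40%, it was 2 of 229 and 319 of 7333 (4.35%), a difference of -3.48 points (-4.28 to -1.18). In peaks with none of the 6 partner strings described below, it was 2 of 369 and 402 of 13584 (2.96%), a difference of -2.42 points (-2.91 to -0.979). In peaks with another asynchronous peak within 10 kb, 5 of 159 tandem GATA peaks (3.14%) and 986 of 16526 others (5.97%) were bookmarked, and the interval of that difference (-4.65 to 1.20 points) includes 0. All 5 bookmarked tandem GATA peaks had such a neighbour. In the widest quartile with at most 1 WGATAR match beyond the tract, 1 of 19 tandem GATA peaks and 112 of 944 others were bookmarked. The interval of that difference (-11.5 to 12.9 points) includes 0. With 2 or more such matches it was 4 of 93 and 1169 of 6898 (-15.4 to -6.34 points).

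The authors kept uniquely mapped reads only. In 297 of the 452 peaks the GATA-rich tracts, added together, were at least as long as a read of 75 nt, although no perfect run exceeded 64 bp. How many peaks held a single tract long enough for a whole read was not counted. The part of read mapping in the width of the peaks or in the missing mitotic peaks was not tested, since neither reads nor input libraries were used here. Copy number in K562 cells and the below 10% of asynchronous cells among the sorted cells were not tested either.

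The 5 bookmarked peaks differed in where the mitotic peak lay. The mitotic peak of ST6GALNAC1, which encodes a sialyltransferase of O-glycans, was 205 bp wide within an asynchronous peak of 697 bp (chr17:76641694-76642390). Its run of 6 units (chr17:76642221-76642244) lay 9.5 bp from its midpoint, and it held 10 WGATAR matches. It was the only one of the 5 in a promoter, 1437 bp downstream of the TSS. The mitotic peak near WIPF3, a regulator of the actin cytoskeleton, covered 78.1% of an asynchronous peak of 836 bp (chr7:29748436-29749271) and held a run of 5 units and 40 WGATAR matches. The mitotic peak near ZNF81, a zinc finger gene, was 395 bp wide in an asynchronous peak of 704 bp (chrX:47817353-47818056), and held a run of 6 units and 7 matches.

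For KIT, the receptor of stem cell factor, the asynchronous peak of 1301 bp (chr4:54570757-54572057) lay 85860 bp upstream of the TSS. Its mitotic peak of 386 bp ended 206 bp short of the 10-unit run and held 2 WGATAR matches and 1 E-box, CAGCTG. For UST, a sulfotransferase of glycosaminoglycans, the mitotic peak of 420 bp lay 203 bp from the 12-unit run in an asynchronous peak of 1230 bp. It held 1 WGATAR match, 1 E-box and 1 AP-1 string. The mitotic peaks of KIT and UST, whose runs were the longest among the bookmarked peaks, thus did not reach the run, and the 3 others held it. In 2 of those 3 the run was off centre. Its centre lay 205.5 bp from the midpoint of the mitotic peak for WIPF3 and 159.5 bp for ZNF81. For KIT and UST this distance was 419 and 437 bp.

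Beyond the tract the tandem GATA peaks held few strings of other blood factors. Outside the run itself a WGATAR match was found in 423 of 452 (93.6%, 90.9% to 95.7%), close to the 92.9% of other peaks. With the whole tract masked, the share was 299 of 452 (66.2%, 61.6% to 70.5%) against 92.8% of others masked in the same way. Beyond the tract a median of 243 bp remained, so densities were compared too. WGATAR reached 8.62 matches per kb against 5.41 in the other peaks, while the GATAA string reached 3.53 against 4.61 per kb.

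The composite of CTG and GATAA separated by 8 bases, which the TAL1 complex binds together with a GATA factor, occurred in 4 tandem GATA peaks (0.885%, 0.242% to 2.25%) and in 8.65% of others (8.34% to 8.96%). Per kb its density was 0.146 of that in the other peaks. The E-box CAGCTG was in 36 peaks (7.96%) against 24.3%, with a density ratio of 0.453. The RUNX string AACCACA was in 11 (2.43%) against 13.8%, a ratio of 0.258, and the ETS string AGGAAGT in 14 (3.10%) against 15.1%, a ratio of 0.277. The AP-1 strings TGACTCA and TGAGTCA were in 21 (4.65%) against 13.2%, a ratio of 0.474. The KLF string CCACACCC was in 8 (1.77%) against 4.08%, a ratio of 0.692. All were searched on both strands. Each of these 6 shares was lower in the tandem GATA peaks, with a Newcombe interval of the difference that did not include 0. The shares compare unequal lengths, since less sequence per peak was left in the tandem GATA peaks. The densities carry no interval, and in the tandem GATA peaks that of KLF rests on 9 matches and that of the composite on 4. The composite contains the letters of GATAA, and the median GC content beyond the tract was lower in the tandem GATA peaks, 39.8% against 44.2%. A string match describes sequence only and does not show that a factor was bound.

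**Figure D1:**
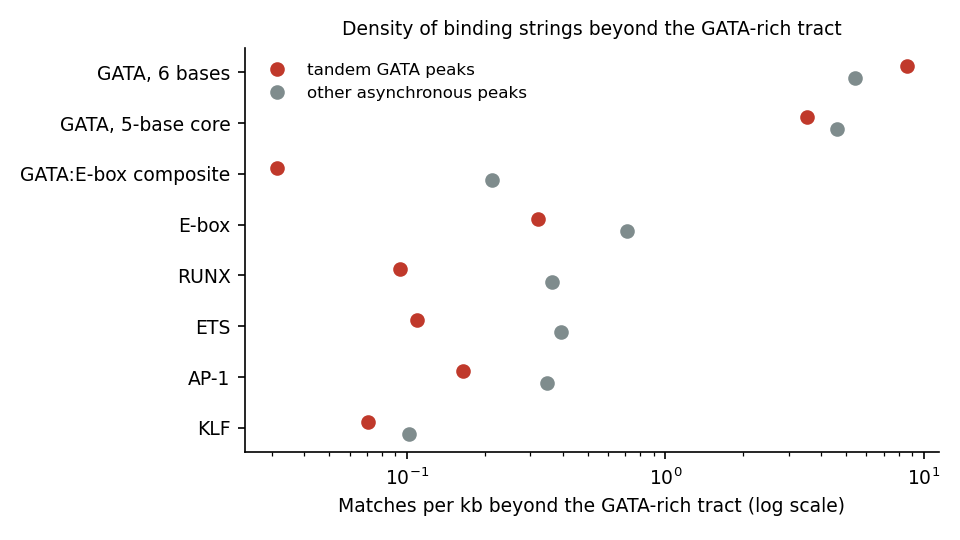
Matches per kb beyond the GATA-rich tract on a log scale (x axis) for 8 strings (y axis) in tandem GATA peaks (red) and other asynchronous peaks (grey). WGATAR (GATA, 6 bases) was denser in the tandem GATA peaks, at 8.62 against 5.41 per kb, and all 7 other strings were less dense. The densities are shown without intervals, and that of KLF in the tandem GATA peaks rests on 9 matches.

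Tandem GATA peaks lay more often between protein-coding genes than other peaks did. Introns, exons and intergenic sequence were called from protein-coding genes only, so intergenic sequence can hold genes of other types. Within 3 kb of a protein-coding TSS were 44 of 452 (9.73%, 7.16% to 12.8%) against 20.6% of the other peaks, a difference of -10.9 points (-13.4 to -7.80). Introns held 144 (31.9%) against 38.2%, exons 2, and intergenic sequence 262 (58.0%) against 39.1%, a difference of 18.9 points (14.2 to 23.4). The nearest TSS of a protein-coding gene was at a median distance of 29786.5 bp against 14298 bp. They were also more isolated, with a median gap of 20554 bp to the next asynchronous peak against 8884 bp. Another peak lay within 10 kb of 159 (35.2%), against 52.8% of others. Sequence right at start sites seldom holds the repeat. Of 35116 RefSeq promoters of the GRCh38 assembly, each from 250 bases before to 50 after the start, 1 held a run of 4 or more GATA units (0.00285%).

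The run lay near the middle of the peak, less closely than a lone GATA match did. The centre of the longest run was a median of 47.75 bp from the midpoint of the peak (quartiles 19 and 98.6 bp), and within 50 bp of it in 234 peaks (51.8%). In the 8459 other peaks with 1 WGATAR match, the match was a median of 36.5 bp from the midpoint, and within 50 bp in 63.8%. Over the 452 tandem GATA peaks, width correlated with the number of GATA units on the strand of the run (Spearman's rho 0.53) and hardly with the length of the longest run (rho -0.10). These peaks share their library and their base composition, and a wider interval has more room for units. Peaks with 4 to 15 units had a median width of 276.5 bp, those with 16 to 24 units 319 bp, those with 25 to 39 units 352 bp and the 100 peaks with 40 or more 590.5 bp. Bookmarked peaks were spread over these groups, with 1 of 112, 2 of 129, 1 of 111 and 1 of 100.

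From the side of the genome, 9126 runs of at least 4 units were found in hg38, up to 17 units long, and 830 of them touched an asynchronous peak (9.09%, 8.51% to 9.70%). The asynchronous peaks cover 0.452% of the sequenced bases. The mitotic peaks cover 0.0181%, and 3 runs touched one (0.0329%, 0.00678% to 0.0960%). Runs within 100 bp of each other were merged into 7680 loci, of which 523, or 6.81%, touched an asynchronous peak. The 7680 include 199 loci on chromosome Y, which held 3 asynchronous peaks, and none of these loci touched one. Without chromosome Y the share of runs that touched an asynchronous peak was 9.37%. By the longest run the share was 3.80% of loci with 4 units, 4.85% with 5, 4.88% with 6 or 7, 6.66% with 8 or 9, 8.10% with 10 to 12 and 11.4% with 13 or more (9.15% to 14.0%).

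The number of GATA units around the run separated loci far more. With 4 to 7 units on the strand of the run in the 500 bp around it, 5 of 817 loci were in an asynchronous peak (0.612%, 0.199% to 1.42%). The share was 1.27% with 8 to 11 units, 3.37% with 12 to 15, 5.10% with 16 to 19, 8.40% with 20 to 24, 17.7% with 25 to 29 and 29.9% with 30 to 39. With 40 or more units it was 122 of 322 (37.9%, 32.6% to 43.4%). None of these 322 loci was in a mitotic peak, which allows up to 0.932%. Of all 7680 loci 3 were (0.0391%), and at that share a count of 0 in 322 says little. The bins of 25 to 29 and of 30 to 39 units each held 1 locus in a mitotic peak. At a given length of the longest run the order by number of units held in part. With a longest run of 4 to 9 units the share was 1.67% below 16 units, 5.39% with 16 to 24 and 27.9% with 25 or more, and with 10 to 12 units it was 2.54%, 6.10% and 29.2%. With runs of 13 or more units the shares were 8.09%, 6.77% and 27.8%, the first and second within each other's intervals.

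The surroundings of a locus differed as well. Loci within 3 kb of a protein-coding TSS were in a peak in 12.8% of cases (9.62% to 16.5%), and those over 100 kb away in 3.62% (3.03% to 4.28%). With no other asynchronous peak within 20 kb the share was 4.49% of 6144 loci, and with 3 or more 23.1% of 238 (17.9% to 29.0%). The second difference was also seen at like numbers of units: of loci with 25 or more units, 23.7% were in a peak without a neighbour (20.9% to 26.7%) and 47.0% with one (40.2% to 53.9%).

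By chromosome the tandem GATA peaks made up 0.597% of asynchronous peaks on chromosome 14 (5 of 837, 0.194% to 1.39%) and 2.92% on the X chromosome (30 of 1027, 1.98% to 4.14%). These are the lowest and highest shares among chromosomes with more than 3 peaks. The loci themselves were in a peak in 18.1% of 144 cases on chromosome 19 and in 1.89% of 317 on chromosome 13.

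The 12 peaks taken for the longest runs lay mostly at intergenic or intronic sites. None was bookmarked, which at 5.04% of all asynchronous peaks says little for so few. The runs of 16 units were in an intron of R3HDM1 (chr2:135698842-135699499) and 32429 bp upstream of ABCA1 (chr9:104960294-104960873), which encodes a cholesterol transporter. Among the runs of 15 units were those 82277 bp from the TSS of SOX9, a developmental transcription factor, and nearest to RBBP6, PTGES, ADGRA3 and NXPH2. Of the 19 peaks with a longest run of 14 units, the 4 widest were nearest to SVOPL, SPDYE21, SNRNP40 and DHX35. Widths of the named peaks ranged from 180 bp for NXPH2 to 744 bp for SVOPL, whose peak held 45 WGATAR matches.

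Within 1 kb of a protein-coding TSS, measured from the midpoint of the peak as for all TSS distances here, there were 12 tandem GATA peaks. None was bookmarked, a number too small to read against the 5.04% of all asynchronous peaks. The 8 with the longest runs are named, and wider peaks come first among equal runs. The longest run, of 14 units, was in a peak of SNRNP40, which encodes a spliceosomal protein, with its midpoint 214 bp upstream of a TSS and inside an intron of the canonical transcript. A run of 13 units lay in the peak with its midpoint 502 bp upstream of POLR2G, a subunit of RNA polymerase II (chr11:62760816-62761309). The others were at FXYD2, a modulator of the sodium pump (13 units), NLRP1, an inflammasome sensor (12 units), FAM229A (11 units), LZTR1 (10 units), SMAD2, a transducer of TGF-beta signals (10 units), and RFWD3, a ubiquitin ligase (9 units).

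Tandem GATA peaks nearest to blood genes were counted over lists of such genes. Of 25 blood stem cell regulators 4 had a tandem GATA peak nearest to them, with 4 of their 200 nearest peaks (2%, 0.548% to 5.04%). Of 44 erythroid genes 2 did, with 2 of 161 peaks (1.24%), and of 20 megakaryocyte genes 1 did, with 1 of 66 peaks (1.52%). These shares of peaks lie near the 1.42% of all asynchronous peaks. Over all protein-coding genes 412 were nearest to a tandem GATA peak. The share of all genes was not computed, so the gene counts are not read as low or high. The stem cell genes were KIT, LMO2, which encodes an adaptor of the TAL1 and GATA complex, MYB, a transcription factor of progenitors, and TEAD1, an effector of Hippo signalling. The peak near LMO2 (chr11:33947003-33947182) was 180 bp wide with a run of 9 units, 55017 bp upstream of the TSS. The peak near MYB (chr6:135173209-135174292) was 1084 bp wide with a run of 8 units, 7557 bp upstream, and was not bookmarked. The peak in TEAD1 was intronic with 5 units. MYB was also on the erythroid list, with GYPC, a red cell membrane glycophorin (13 units, 37 WGATAR matches). The megakaryocyte gene was VWF, which encodes von Willebrand factor, with a run of 8 units in an intron.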

How the data were processed

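GATA2 ChIP-seq was analysed in asynchronous and mitotic K562 cells, with 1 library per condition; input libraries were not used here. Per the submitters' processing notes and the study's methods, the authors aligned 75-nt reads to hg38 with BWA 0.7.12, kept uniquely mapped reads, extended them, called peaks with MACS2 2.1.0 and Genrich 0.6.1 and removed blacklisted peaks. How the callers were combined is not given in the sources used here. The deposited values are peak starts and ends in bp, with no score, so depth is unknown.

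Sequence under each peak was read from hg38 and searched for perfect GATA runs on both strands. Gene positions came from GENCODE release 44, and peaks up to 3 kb from the TSS of a coding gene count as promoter peaks. Genomic positions count from 1. Shares have exact binomial intervals and differences Newcombe intervals, at 95%; where a count was 0, the limit is 3 counts. The tandem peaks, lists and settings were chosen with earlier results of these data known. Named genes were those nearest to the mitotic peaks with a run, to the 12 longest runs, to the 8 longest within 1 kb of a TSS, and all genes of 3 blood lists; PDE9A and UST were added after their values were seen, the first for the most GATA units and the second as bookmarked. Alternatives changed the repeat rule, the interval, the overlap, the width bins, the masking, the promoter distance and the flanks. Some items under this rule are not reported here. The steps were tested on simulated data. Python 3.11.15, numpy 2.4.6, scipy 1.17.1, statsmodels 0.14.6, pysam 0.24.0, matplotlib 3.10.9 and samtools 1.23.1 were used.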

Additional observations from a re-analysis of the deposited data

How the results depend on the processing

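No paired analysis was possible because each condition has 1 library, and no replicate could be left out for the same reason. Of 59 values under another setting, 42 stayed within the 95% interval of the value reported and 17 did not; the direction of both differences in bookmarked share was negative under every alternative run. Depth limits what the lists can show: a locus outside a peak may hold GATA2 under the limit of detection.

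The share of asynchronous peaks with a run became 1.58% with a minimum of 3 units and also with changed units accepted between perfect ones, 1.24% with a minimum of 6 units and 1.17% in the central 200 bp. The share of genomic runs in an asynchronous peak became 8.32% with a minimum of 3 units and 8.21% with changed units accepted. The ratio of peaks to flanks became 14.6 and 27.2 with minima of 3 and 6 units. The difference in bookmarked share became -1.60 points where reciprocal overlap of at least 50% was required (-1.52 standardised for width), -7.34 among peaks at or above the median width, and -2.42 among peaks with none of the 6 partner strings, an alternative chosen after seeing the data. The cause of these shifts was not tested. The share of tandem GATA peaks with a match outside the run became 68.6% for GATAA, 85.4% with 10 bp masked to each side of the run and 66.2% with the whole tract masked, the last also added after seeing the data. The promoter share became 2.65% within 1 kb and 14.8% within 3 kb of a TSS of any gene type.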

Other observations

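The 452 tandem GATA peaks were nearest to 412 protein-coding genes, so most genes had a single one. PRKX, a protein kinase gene on the X chromosome, was nearest to 6 of them among 16 asynchronous peaks, MXRA5 to 4 of 5 and NLGN4X, a synaptic adhesion gene, to 3 of 11. AUTS2 had 3 of 7 and RALGPS2 3 of 6. These genes were chosen after their values were seen, as those with most tandem GATA peaks. Of the 452, 158 shared a 24-base word outside the repeat arrays with another tandem GATA peak, and 11 neighbouring pairs lay within 10 kb of each other. Members of such groups are therefore not independent in sequence.

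Among 143 tandem GATA peaks in introns of a gene, the longest run read GATA on the coding strand in 82 and on the opposite strand in 61. The coding-strand share was 57.3%, and its exact 95% binomial interval, 48.8% to 65.6%, includes an even split.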
